A study of Squalius alburnoides and Squalius pyrenaicus with 4 samples.

Results

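Both hybrid forms of the *Squalius alburnoides* complex, the triploid PAA and the diploid PA, were set against both non-hybrid forms, the diploid AA and the parental species *S. pyrenaicus* (PP), on miRNA microarrays. All 4 arrays of the series entered the comparison, 2 on each side, and it was followed over the 218 probes of the chip that carry zebrafish names. The letters count genome copies, P from *S. pyrenaicus* and A from the other ancestral lineage of this Iberian fish. Each array held Cy3-labelled total RNA of adult fish, from liver, muscle and brain of several untreated individuals pooled together. AA, PA and PAA came from the same river and PP from another, and since AA fish are by the study's account all males while most PAA fish are females, a difference in sex cannot be told apart from hybrid state either. With 1 array per composition, the arrays of a side are different forms and not replicates of a form. By the image names in the scanner files PAA and PA lay on 1 slide and AA and PP on a second, although another field of the same headers names 1 slide for all 4, so in every value below a difference between hybrids and non-hybrids cannot be told apart from one between slides.

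MicroRNAs are short RNAs that guide Argonaute proteins to messenger RNAs with matching sites, which are then repressed or degraded. Many are made in families that share the bases used for pairing, and several are nearly confined to a tissue, such as miR-122 to liver, miR-1 and miR-206 to muscle and miR-124 to neurons. In fish of mixed genome composition they are of interest because each copy of a regulator can act on messages of both parental genomes. In pooled tissue, fewer cells of a type and less RNA per cell cannot be told apart.

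A probe was taken as detected on an array when at least 2 of its 4 spots had been kept at the scan and were at least 2 times as bright as their local background. By this rule the hybrids PAA and PA had 168 and 164 detected probes of 218 and the non-hybrids AA and PP 154 and 156, so both hybrid counts lay above both non-hybrid counts, as did the summed signals. For a total such as this an exact two-sided permutation test of 2 arrays against 2 gives p = 0.333, which is the smallest it can give. Probes named for other vertebrates showed the same order of sides, with 485 (PAA), 500 (PA), 452 (AA) and 479 (PP) detected. For probes with invertebrate names only the counts were 124, 133, 117 and 134 in that order, and the sides overlapped. The brightness of spots without a probe (BLANK, 95th percentile) differed widely, at 103 (PAA), 209 (PA), 203 (AA) and 516 (PP), and 167, 88, 66 and 31 zebrafish probes exceeded it in that order. The intensity of a probe under this level could not be told from that of empty spots, and this is said beside the probes that are given with all their values.

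Values below are log2 intensities after background subtraction and quantile normalization, and a difference is the mean of PAA and PA minus the mean of AA and PP. The sides do not overlap when the lower array of the brighter side exceeds the higher array of the dimmer side, and the gap is the distance between these 2 arrays. Of the 114 probes detected on all 4 arrays, 48 did not overlap (42.1%), 32 of them higher on the hybrids (28.1%) and 16 lower (14.0%). Probes with invertebrate names only, which serve as background, did not overlap in 37 of 90 cases (41.1%), with 30 higher (33.3%) and 7 lower (7.78%), and those of other vertebrates in 156 of 351 (44.4%), with 34.5% higher and 9.97% lower. The share of zebrafish probes without overlap was thus near that of the background probes, and the count by itself is no result about fish miRNAs. The invertebrate class rests on names alone and is not free of signal. Of its 183 probes, 28 exceeded the BLANK level on all 4 arrays, beside 22 of the 218 zebrafish probes. Sides that were also at least 2-fold apart were found for 11 zebrafish probes (9.65%), 8 higher and 3 lower on the hybrids, for 5.56% of the invertebrate probes and for 6.27% of those of other vertebrates.

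Differences within a side were of the same order as those between the sides. The first compare single arrays and the second means of 2 arrays, which vary less, so the measures are not alike. The median size of the difference was 0.27 between PAA and PA, 0.48 between AA and PP, and 0.30 between the sides. At least 2-fold apart were 4 probes between PAA and PA, 25 between AA and PP and 12 between the sides. For 13 probes (11.4%) not even single passing spots overlapped, 11 of them higher (9.65%) and 2 lower (1.75%) on the hybrids. Of the 48 probes without overlap, 27 differed more between the sides than within either of them. Neither of these counts was made for the background probes, so neither is shown to exceed their share. Only 11 of the 48 exceeded the BLANK level on all 4 arrays (6 higher and 5 lower on the hybrids, of 22 probes above it everywhere). Among background probes above it everywhere, 17 of 28 invertebrate and 55 of 100 other vertebrate probes did not overlap. Of the 48 zebrafish probes, a further 11 were above the BLANK level on both hybrids and on neither non-hybrid. Another 8 of the 48 were not above it on any array of their brighter side. The gap was under 0.1 for 13 of the 48 and at least 0.3 for 14, so that many of these calls rest on small distances.

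**Figure D1:**
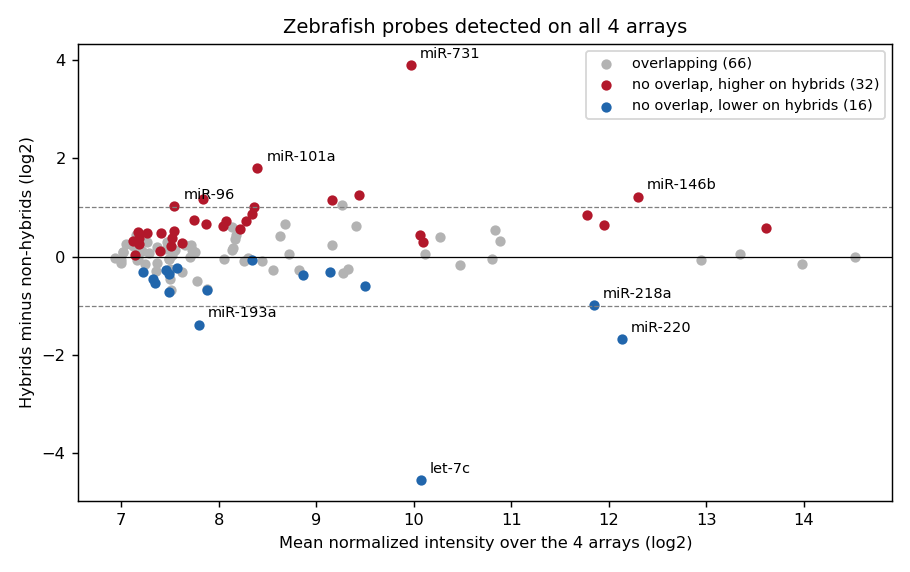
Difference between the hybrid and non-hybrid sides (log2, vertical axis) against the mean normalized intensity over the 4 arrays (log2, horizontal axis) for the 114 zebrafish probes detected on all 4 arrays. Red and blue points are the 32 probes higher and the 16 lower on the hybrids without overlap, grey points the 66 that overlap, and dashed lines mark 2-fold; let-7c at −4.54 and miR-731 at 3.90 stand apart from the rest.

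The largest difference belonged to let-7c, a member of the let-7 family of regulators of developmental timing and differentiation. Its log2 intensity was 7.70 on PAA and 7.89 on PA against 12.43 on AA and 12.24 on PP. Both hybrids were thus low and both non-hybrids high, the arrays of a side lay within 0.2 of each other, and all 4 values exceeded the BLANK level. The difference was −4.54 ± 0.20 (SE of limma, 2 arrays a side), a 23.3-fold lower intensity on the hybrids with a gap of 4.35, and no spot of one side reached a spot of the other. It lay between −5.40 and −4.54 over 7 scalings of the arrays (by quantiles of either probe set, the median, the total signal, control spots, background probes, or none).

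No other let-7 probe measured on all 4 arrays followed let-7c in size, and let-7d, let-7h and let-7i were detected on PP alone. let-7e, the brightest of them, lay at 11.08 on PAA and 10.93 on PA against 10.27 on AA, higher on the hybrids and above these arrays' BLANK levels, but too few of its spots were kept on PP to measure it there. let-7g was at 7.71 (PAA), 7.37 (PA), 7.71 (AA) and 8.71 (PP), a difference of −0.67 in which PAA and AA were level to the second decimal and PP was the high array, and only PAA exceeded its BLANK level. A mouse let-7g probe (−0.34) and a probe labelled dme-let-7 (−0.84) were lower on the hybrids as well, without overlap. The first was above the BLANK level on PAA only and the second on PAA and AA only. A mouse let-7f probe went the other way, detected on PAA (7.56) and PA (7.79) and on neither non-hybrid. A human let-7d probe was detected on PAA (8.30) and AA (7.95) alone. let-7b was at 9.23 (PAA), 8.79 (PA), 9.03 (AA) and 7.66 (PP, under its BLANK level), so that the sides overlapped and the difference was 0.67. let-7a, at 0.15, overlapped as well, with only PAA above its BLANK level. Of the 10 let-7 probes on the chip 4 were detected on all 4 arrays, none higher and 2 lower without overlap, with a median of −0.26 beside 0.12 over all 114 probes.

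Highest on the hybrid side was miR-731, a fish miRNA made from the same cluster as miR-462 and known from responses to virus infection. Its values were 11.33 (PAA), 12.51 (PA), 7.13 (AA) and 8.92 (PP). PA was the brightest and AA the dimmest array, and neither AA nor PP exceeded its BLANK level. The hybrids were 14.9 times as bright (3.90 ± 0.82, gap 2.42), at least 10.4-fold when AA and PP are put at their BLANK levels, and the difference lay between 3.30 and 3.90 over the scalings. Its neighbour miR-462 was dim on every array, at 7.44, 6.90, 6.78 and 7.05 on PAA, PA, AA and PP, only PAA was above its BLANK level, and the sides overlapped with a difference of 0.25.

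The probe of miR-101a, which in mammals targets the messenger RNA of the histone methyltransferase EZH2, gave 9.03 on PAA and 9.56 on PA but 7.60 on AA and 7.39 on PP. The non-hybrids were close to each other and under their BLANK levels, and no spots overlapped between the sides. The hybrids were 3.49 times as bright (1.80 ± 0.27), and at least 1.69-fold against the BLANK levels. A rat miR-101b probe was detected on PP alone, at 9.18, just above its BLANK level. The zebrafish miR-101b probe was detected on PA alone, at 6.99, under its BLANK level.

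For miR-146b, in mammals a brake on innate immune signalling, the values were 12.76 (PAA), 13.06 (PA), 11.68 (AA) and 11.69 (PP). It was above the BLANK level on all 4 arrays, and AA and PP were nearly identical. Its difference of 1.22 ± 0.20 (2.34-fold) was as low as 0.25 over the scalings, and the sides overlapped in 2 of the 7. A human probe of the same name went the other way with overlapping sides, at 9.26 (PAA), 7.14 (PA), 8.90 (AA) and 9.79 (PP), with PA under its BLANK level.

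The miR-183 cluster, expressed together in hair cells and photoreceptors, had its members measured on all 4 arrays, miR-96 and miR-183, higher on the hybrids. miR-96 lay at 8.07 on PAA and 8.06 on PA, and at 7.03 on both AA and PP. Both sides were tight, the difference was 1.03 ± 0.17 with a gap of 1.03, and AA and PP were under their BLANK levels, which leaves no bound on the fold. A human miR-96 probe, above the BLANK level on all 4 arrays, gave 9.93, 9.52, 8.08 and 9.22 on PAA, PA, AA and PP, again without overlap (1.07). miR-183 was dimmer, at 7.54, 7.31, 6.89 and 6.94 in that order, with only PAA above its BLANK level and a difference of 0.51 that did not overlap in 6 of the 7 scalings. The third member, miR-182, was detected on the hybrids alone and is described with the probes of that kind. The probe of its other arm, miR-182*, was not measured on PP. It was at 8.33 on PAA, 8.76 on PA and 8.14 on AA, above the BLANK level of each of these arrays.

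Among the remaining probes named as higher, miR-451, needed for the maturation of red blood cells in zebrafish, was at 8.34 (PAA), 8.49 (PA), 7.63 (AA) and 6.86 (PP). The hybrids lay together above AA, with PP lowest and both non-hybrids under their BLANK levels (1.17 ± 0.34). A human miR-451 probe gave 7.32 (PAA), 7.12 (PA) and 7.15 (PP), was not detected on AA, and exceeded the BLANK level on PAA only. The embryonic miR-430j, one of the miRNAs by which zebrafish embryos remove maternal transcripts, was at 9.64, 10.49, 9.32 and 8.30 on PAA, PA, AA and PP, with PA high, PAA close to AA and PP low and under its BLANK level (1.26 ± 0.52). Muscle miR-1 gave 10.11, 9.37, 9.21 and 7.96 on PAA, PA, AA and PP, so that PA and AA differed little. Its difference of 1.15 ± 0.57 came mostly from PAA and PP, where PP was under its BLANK level. A rat miR-1 probe was detected on AA alone (7.87) and a probe labelled cel-miR-1 on PA alone (7.54), each under its BLANK level.

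Smaller differences without overlap were found for miR-30c, miR-22a and miR-724. miR-30c, of a broadly expressed family, was at 8.58 (PAA), 8.29 (PA), 7.97 (AA) and 7.44 (PP) (0.73). A value of 8.26 (PAA), 8.14 (PA), 7.81 (AA) and 7.25 (PP) was measured for miR-22a, known from heart and skeletal muscle of mammals (0.67). Both were highest on PAA and lowest on PP, with no overlap of spots between the sides. PP was under its BLANK level for each, and AA for miR-22a. The fish miRNA miR-724 differed by 0.48, with 7.56, 7.44, 7.14 and 6.90 on PAA, PA, AA and PP, and only PAA was above its BLANK level.

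**Figure D2:**
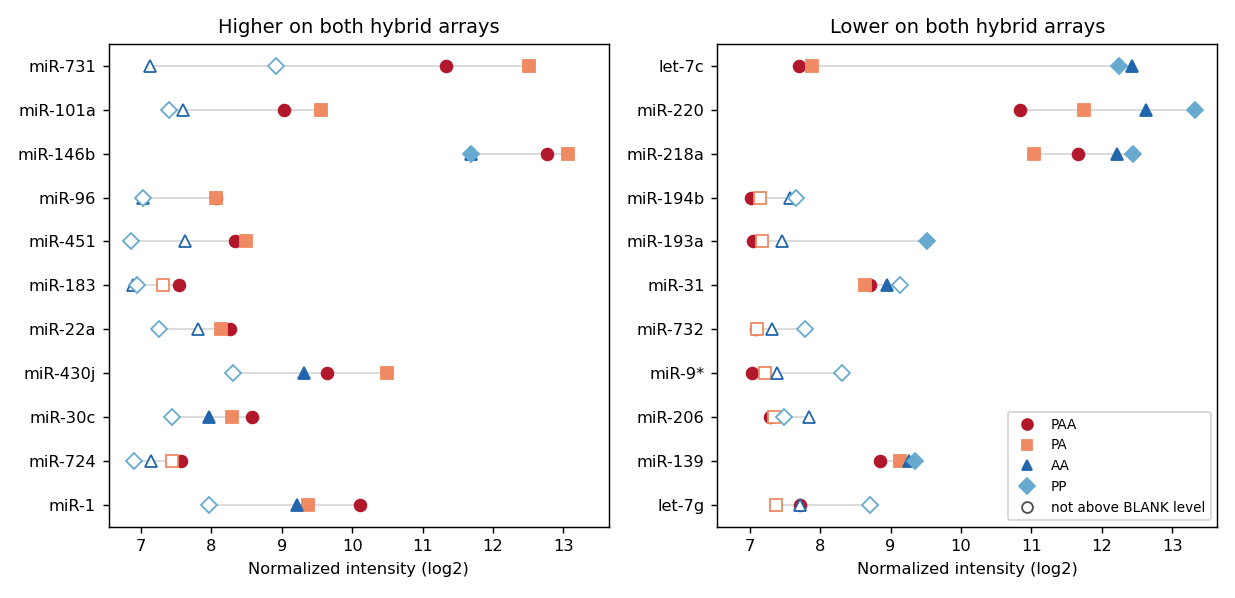
Normalized intensity (log2, horizontal axis) on each array of the probes named as higher (left) and lower (right) on both hybrids, in order of the gap, with miR-1 and let-7g added for their mean difference. Red symbols are the hybrids PAA and PA and blue symbols the non-hybrids AA and PP, filled where the value exceeded the BLANK level of its array; let-7c (7.70 and 7.89 against 12.43 and 12.24) and miR-731 show the widest separation.

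On the lower side, miR-220 followed let-7c. Its intensity was 10.84 (PAA), 11.75 (PA), 12.63 (AA) and 13.32 (PP), all above the BLANK level, and the 4 arrays were spread widely with no overlap of spots between the sides. The hybrids were 3.21-fold dimmer (−1.68 ± 0.46), and between −2.58 and −1.68 over the scalings. A human miR-220 probe went the other way, with 7.79 on PAA and 7.13 on PA (the latter under its BLANK level) and no detection on AA and PP. miR-218a, known from motor neurons, gave 11.66 (PAA), 11.03 (PA), 12.22 (AA) and 12.45 (PP), also above the BLANK level throughout. Both non-hybrids were high and PA lowest, the difference was −0.99 ± 0.30, and some spots overlapped. A human miR-218 probe was dim and overlapped, with a difference of −0.09.

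The liver and gut miRNA miR-194b was at 7.01 (PAA), 7.15 (PA), 7.57 (AA) and 7.65 (PP), each side tight but only PAA above its BLANK level (−0.53 ± 0.18). For miR-193a, in mammals linked to fat cells and tumour growth, PP alone was high, with 7.05, 7.17, 7.46 and 9.52 on PAA, PA, AA and PP, and PA and AA were under their BLANK levels, so its difference of −1.38 ± 0.79 speaks mainly of PP. A mouse miR-193 probe went the other way without overlap, at 7.16, 7.60, 7.12 and 7.14 (0.25), with only PAA above its BLANK level. A human miR-193b probe was detected on the hybrids alone, at 8.27 (PAA) and 7.13 (PA, under its BLANK level). As for zebrafish miR-193a, PP had the highest value for miR-9*, the second arm of the neural miR-9 precursor, at 7.03, 7.21, 7.38 and 8.31 on PAA, PA, AA and PP (−0.72), but all arrays except PAA, PP included, were under their BLANK levels. Muscle miR-206 lay at 7.28 (PAA), 7.35 (PA), 7.84 (AA) and 7.49 (PP), a difference of −0.35 that became 0.07 when the median over spots was used in place of the mean, and only PAA was above its BLANK level.

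Of the other probes named as lower, the fish miRNA miR-732 differed by −0.45, with PAA and PA at 7.09 and 7.10 and AA and PP at 7.31 and 7.78, and only PAA was above its BLANK level. The brighter miR-31, known from injury and epithelial cells, was at 8.71, 8.63, 8.95 and 9.14 on PAA, PA, AA and PP (−0.38), with PP just under its BLANK level, and miR-139, above it on all arrays, at 8.85, 9.13, 9.26 and 9.34 (−0.31). The last pair changed sign without scaling, at 0.10 for miR-31 and 0.18 for miR-139.

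Over the 114 probes, limma's moderated test with Benjamini-Hochberg adjustment called let-7c alone at the threshold of 0.05 (0.877% of the probes, adjusted p = 0.00596), lower on 2 of 2 hybrids than on both non-hybrids. The spread it uses is that between the 2 forms of a side, and it had 2 residual degrees of freedom. At an unadjusted p under 0.05 there were 9 probes (7.89%), against 14 of 90 invertebrate probes (15.6%) and 29 of 351 probes of other vertebrates (8.26%). Beside let-7c these were miR-101a (adjusted p = 0.15), miR-96 (0.15), miR-146b (0.15), miR-731 (0.272), miR-220 (0.496), miR-451 (0.513), miR-218a (0.513) and miR-194b (0.59), and none of these 8 passed the adjustment. The adjusted p of let-7c was 0.284 without PAA, 0.317 without PA, 0.0264 without AA and 0.0837 without PP, where the lone array of a side is assumed to vary like the other side. It lay between 1.01e-09 and 0.317 over 18 alternatives and under the threshold in 15. With scaling to the median, to control spots labelled Homo (target not stated) or to the invertebrate probes, let-7c, miR-101a, miR-218a, miR-220 and miR-731 were called.

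A further 9 probes (4.13% of 218) were detected on both hybrids and on neither non-hybrid, beside 2.73% of the invertebrate and 3.22% of the other vertebrate probes. Of these miR-182, of the miR-183 cluster, was by far the brightest. It gave 10.02 on PAA and 9.89 on PA, from 4 passing spots on each, while its background-subtracted signal was 40.2 on AA and 39.3 on PP with 1 and 0 passing spots. Both hybrids were therefore bright and both non-hybrids near background, and the hybrids were at least 9.61-fold brighter than the limit of detection on AA and PP (the lowest detected signal), or at least 2.67-fold above their BLANK levels.

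The other 8 probes of this kind had no such margin. None of them allowed a bound over the BLANK level, and in most some spots did not pass on the hybrids either, so the bounds below take the hybrids' mean over all kept spots, passing or not. miR-193b was at 8.12 on PAA and 8.34 on PA in its passing spots and endothelial miR-126* at 7.41 and 8.30, but over all kept spots miR-193b allowed no bound and miR-126* one of 1.02-fold. miR-27c*, of the miR-23/27/24 clusters, stood at 7.68 on both hybrids (at least 1.76-fold over the limit of detection) and miR-19b*, of a miR-17 type cluster, at 7.04 and 8.28 (1.43-fold). The bounds were 1.34-fold for miR-727*, 1.06-fold for miR-27d and 1.04-fold for miR-34b (by its passing spots, the lower value), a known target of p53 in mammals, and none could be given for miR-19c. miR-727*, miR-27d, miR-19c and miR-34b each exceeded the BLANK level on 1 hybrid array alone. Over all kept spots, passing or not, the unscaled signals of the sides did not overlap for 5 of the 9 (miR-182, miR-27c*, miR-19b*, miR-727* and miR-27d), and for miR-193b, miR-126*, miR-19c and miR-34b PP was as bright as a hybrid array or brighter. Since the 9 were chosen by which of their spots passed on each side, a lack of overlap is favoured by the choice and is no separate evidence.

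Detected on both non-hybrids and on neither hybrid were 4 probes (1.83%), beside 3.28% of the invertebrate and 1.53% of the other vertebrate probes. The gonadal miR-202 was at 8.61 on AA and 7.48 on PP in its passing spots, at least 1.19-fold over the limit of detection when all kept spots are taken, and only AA was above its BLANK level. Epithelial miR-200b gave 7.54 and 8.07 (no bound over all kept spots), miR-363, of a related cluster, 7.42 and 7.69 (1.05-fold) and neuronal miR-128 7.35 and 6.96 (1.38-fold), none above the BLANK level on either array. Over all kept spots the unscaled signals of the sides did not overlap for any of the 4, which were chosen in the same way. For miR-128 all 4 spots passed on AA and PP and 0 on PAA and PA, and its unscaled signal was 22.8 on PA against 137 on AA and 126 on PP. Probes of other species with these numbers differed among themselves. That of mouse miR-363 was detected on all 4 arrays, at 9.07 (PAA), 8.54 (PA), 9.11 (AA) and 8.65 (PP). Its sides overlapped with a difference of −0.08, and only PP was under its BLANK level. A human miR-202 probe was not detected on PAA and gave 6.95 (PA), 7.43 (AA) and 8.73 (PP), higher on the non-hybrids like the zebrafish probe but under these 3 arrays' BLANK levels. The probe of mouse miR-202 gave 12.81 and 12.87 on PAA and PA against 11.68 and 11.39 on AA and PP, and that of mouse miR-200b 14.38 and 14.03 against 11.35 and 11.52, so both were higher on the hybrids (1.31 and 2.77).

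Grouped into 28 lists of families and of tissue or cell type markers, 99 of the 114 probes belonged to at least 1 list. Beside miR-96 and miR-183 (median 0.77), the families with most of their measured members higher were miR-430 and the family of miR-130b, miR-454a and miR-454b. In the miR-430 family miR-430b (0.62) and miR-430j were higher and miR-430a (−0.59) lower, with a median of 0.62. The sides of miR-430a separated in only 2 of the 7 scalings, with a difference between −0.59 and −0.02. Its passing spots were spread widely, on PAA from 7.32 to 12.97. miR-454a (0.48) and miR-454b (1.01, at 9.16, 8.57, 8.30 and 7.41 on PAA, PA, AA and PP, with PP under its BLANK level) were higher and miR-130b (−0.27) overlapped. Relative to the median of all probes these medians lay higher by 0.65 for the miR-183 cluster, 0.51 for miR-430 and 0.36 for the family of miR-130b, and that of let-7 was at −0.38. With 2 to 4 measured members each, these medians rest on few probes. The list with miR-130b holds 5 other probes, not detected on all 4 arrays. Of these, miR-301a and miR-301b were higher on both hybrids than on the non-hybrid array that detected them. miR-130a was detected on AA alone (7.79) and miR-130c on PP alone (6.69). miR-301c was at 7.55 on PA and 8.02 on PP. The values of miR-130a, miR-130c and miR-301c were all under their arrays' BLANK levels.

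The miR-17 type clusters, tied to cell proliferation, had 9 measured members, of which miR-19a (0.37) and miR-25 (0.86) were higher, miR-17a (−0.06) lower and 6 overlapping (median 0.37, and −0.04 to 0.44 over the scalings). miR-92a showed how a large mean can overlap. It was at 9.43 (PAA), 10.15 (PA), 10.49 (AA) and 6.99 (PP), so that AA was the highest array and PP the lowest and under its BLANK level, and its difference of 1.05 did not separate the sides. In the miR-23/27/24 clusters 1 of 6 was higher (miR-23a, 0.58), and in the miR-15 and miR-16 family 1 of 5 (miR-15a*, 0.52). Among other miRNAs of teleosts miR-723, miR-724 and miR-740 (0.75) were higher and miR-732 and miR-739 lower, with 4 overlapping and a median of 0.04. Of the 7 scalings, the sides separated in the direction given in only 1 for miR-723. They did so in 2 for miR-17a, miR-23a and miR-740. The differences of miR-17a, miR-19a, miR-23a and miR-723 changed sign among the scalings.

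By tissue, the lists of all 3 tissues of the pools had members detected on all 4 arrays. Of 5 measured skeletal muscle miRNAs, miR-1, miR-133a (0.32) and miR-133a* (0.12) were higher, miR-206 lower and miR-133b (0.29) overlapped, with a median of 0.29 (−0.18 to 0.30 over the scalings). miR-133a* had a gap of 0.01 and separated in only 1 of the 7 scalings, and miR-133a in 4. Of the 3 other muscle probes, miR-133b* was detected on AA alone, at 8.89, above that array's BLANK level. miR-499 was at 7.64 on PAA and 8.11 on AA, with no value on PA and PP. miR-133c was at 7.92 (PAA), 6.92 (PA) and 7.60 (PP) and not detected on AA, with PA and PP under their BLANK levels. The brain list was mixed. miR-9 (0.85, at 12.10, 12.31, 10.83 and 11.88 on PAA, PA, AA and PP) and miR-132 (0.64), which follows neuronal activity, were higher, miR-9* and miR-218a lower, 8 overlapped and the median was −0.07 (−0.38 to 0.10). The sides of miR-132 separated in only 1 of the 7 scalings, and its difference was as low as −0.13. Those of miR-9 separated in 4. A further 7 brain probes were detected on other combinations of arrays. Of these, neuronal miR-124 was at 7.59 (PAA), 7.92 (PA) and 8.05 (PP, under its BLANK level) and was not detected on AA. Of the liver and gut list miR-194b was lower, and miR-122, at 7.94, 7.65, 8.08 and 7.24 (PP under its BLANK level), and miR-192, the brightest probe of each array and therefore fixed by quantile normalization, overlapped.

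Markers of blood, vessel and other cells that tissue samples can hold were few. Red blood cell miR-451 was higher, and its partner miR-144 was detected on no array. Of the leukocyte list, miR-146b and miR-155 (0.43, at 10.17, 10.37, 10.04 and 9.66) were higher and miR-142a-3p (0.07) overlapped, and 5 others were not detected on all 4 arrays. Of these 5, miR-150 (9.49) and miR-142a-5p (8.31) were highest on AA, above its BLANK level. miR-146a (8.28) was highest on PP, under its BLANK level. miR-142b-5p was detected on PAA alone, at 7.72, and miR-223 was at 7.84 on PAA and 7.71 on PP, the latter under its BLANK level. Endothelial miR-126 (0.36) and smooth muscle miR-145 (0.29) overlapped, as did miR-140* and miR-199* of connective tissue. Skin miR-203a (0.37) was higher and miR-205 (−0.05) overlapped. The gap of miR-203a was 0.02, its sides separated in 3 of the 7 scalings, and AA and PP were under their BLANK levels. Of the other skin probes, miR-203b was at 7.16 (PAA), 7.05 (AA) and 8.62 (PP) and not measured on PA. miR-203b* was detected on PP alone, at 8.56. For both, only PAA of miR-203b was above its BLANK level. Pancreatic miR-375 (−0.66) overlapped, with its highest value of 9.06 on PP, which like AA was under its BLANK level. The part of blood or other cells in the differences of other probes was not tested.

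**Figure D3:**
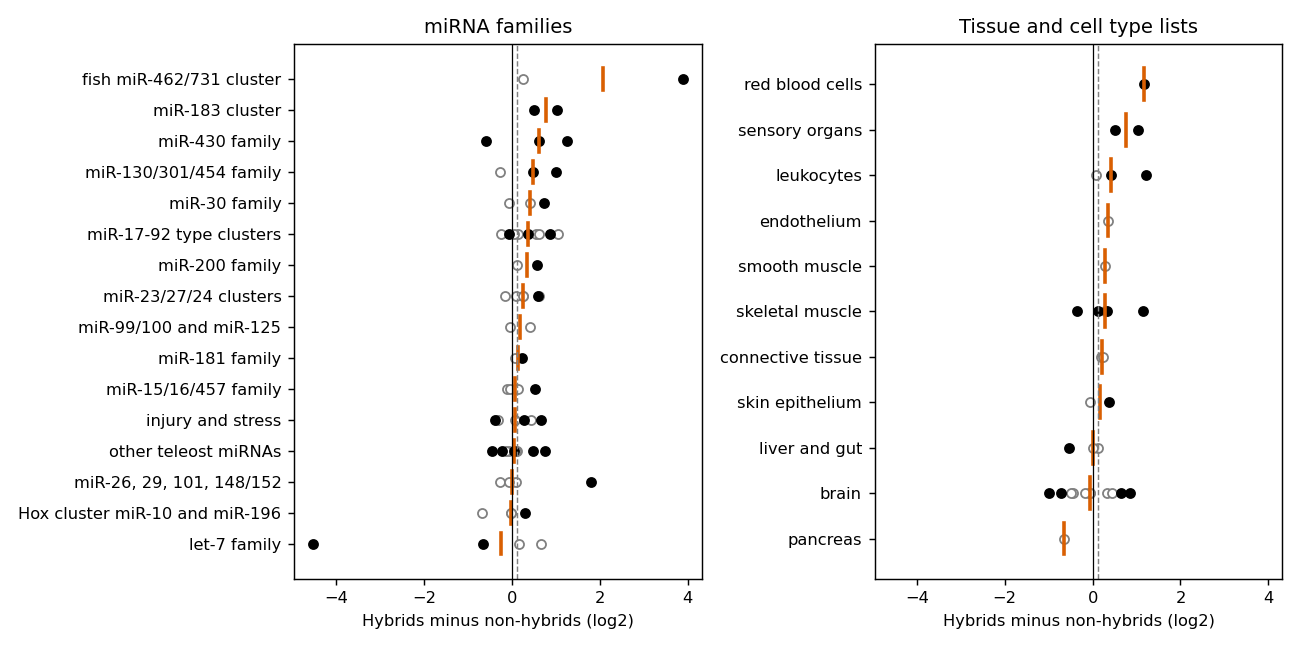
Difference between the hybrid and non-hybrid sides (log2, horizontal axis) of each measured probe by miRNA family (left) and by tissue or cell type list (right). Filled points do not overlap between the sides, open points do, the orange bar is the median of the list and the dashed line that of all 114 probes, at 0.12; most lists spread across it.

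How many probes were higher and how many lower depended on the scaling of the arrays. Without overlap, 32 were higher and 16 lower with quantile normalization over the zebrafish probes, and 29 and 14 with quantile normalization over all miRNA probes. Median scaling gave 16 higher and 30 lower, and scaling on the invertebrate probes 14 and 33. With the Homo control spots the counts were 20 and 17, with the total signal 37 and 8, and without scaling 42 and 7. The median difference of all probes moved from −0.22 with the invertebrate probes to 0.26 without scaling, so no excess in either direction can be given for the miRNAs as a whole.

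The direction and the lack of overlap held under all 7 scalings for 12 probes higher on the hybrids (10.5%) and 6 lower (5.26%). The first were miR-1, miR-101a, miR-10a*, miR-22a, miR-25, miR-30c, miR-430b, miR-430j, miR-451, miR-454b, miR-731 and miR-96. The second were let-7c, miR-184, miR-194b, miR-206, miR-218a and miR-220. Among the invertebrate probes the shares were 8.89% and 3.33%, and among those of other vertebrates 11.1% and 3.13%.

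**Figure D4:**
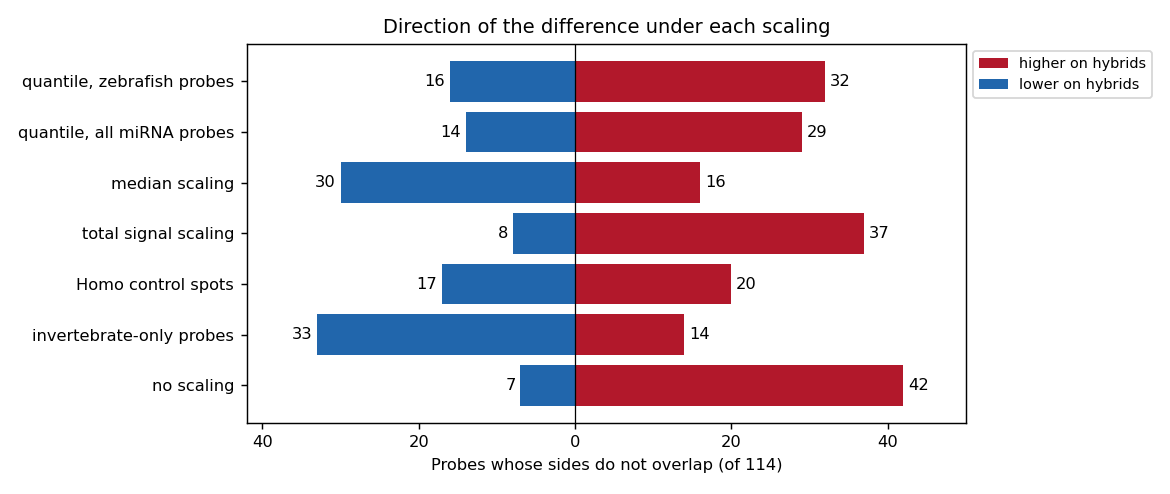
Number of zebrafish probes, of the 114 detected on all 4 arrays, whose sides did not overlap, under each of 7 scalings of the arrays. Red bars to the right count probes higher on the hybrids and blue bars to the left those lower; the longer side turns with median scaling (16 against 30) and with scaling on the invertebrate-only probes (14 against 33).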

How the data were processed

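The scanner files of the authors hold foreground and local background intensities of 5040 spots in 24 subarrays per array, as deposited neither background-subtracted nor normalized per the file headers. The deposited files mark spots with other values, 1 or 0, and 1 was read as kept. Header image names gave the slides. The value table of the authors holds linear intensities, which matched (tolerance 0.1%) geometric means over the kept spots' foreground, without subtraction, multiplied by array factors of 0.943 to 1.18. It was used as an alternative.

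The background was subtracted, passing spots averaged on the log2 scale, and zebrafish probes quantile-normalized. Sides were compared with limma 3.58.1 (R 4.3.3), tested on simulated data. The number of arrays limits the precision. Probes named are the 10 with the largest gap and the 6 with the largest difference without overlap each way, all probes detected on 1 side, and list members as examples. The members, lists and alternatives were chosen with earlier results of these data known. For probes detected on 1 side, bounds compare the bright mean over all kept spots (a choice made after the data were seen), or over passing spots where lower, with the mean of the lowest detected signal, or the BLANK level, or the dim probe's own signal where higher. Where a mean of AA and PP was put at the BLANK level for probes detected on all arrays, each array took the higher of its value and its level.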

Additional observations from a re-analysis of the deposited data

Results flagged for a closer look

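Signal was also present in probes whose targets are not given in the sources used here and which the comparison does not use. Of the 25 probes labelled ZF_miR, 4 exceeded the BLANK level on all 4 arrays, and all 4 were higher on the hybrids without overlap. Over the 9 detected on all arrays this is 44.4%, near the 42.1% of zebrafish and 41.1% of invertebrate probes. Among probes above the level on all arrays, 11 of 22 zebrafish, 17 of 28 invertebrate and 55 of 100 other vertebrate probes did not overlap. ZF_miR_11 read 11.52 (PAA), 11.53 (PA), 10.95 (AA) and 10.53 (PP), and the 4 differences lay between 0.64 and 0.84. Of the 76 probes labelled with a number only, 12 exceeded the level on all arrays, and 5 of them did not overlap. The clearest of these 12, probe 1521, gave 13.40, 13.36, 12.34 and 12.27 in that order, a difference of 1.07. Of the 43 probes with a number only that were detected on all arrays, 19 did not overlap (44.2%). At least 2-fold apart without overlap were 5 (11.6%), beside 9.65% of the zebrafish probes. The largest difference among the 43 without overlap was 5.78, higher on the hybrids. That probe was not above the BLANK level on all arrays.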

How the results depend on the processing

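Of 364 values of the 22 named differences under the alternatives, 335 had the direction and side of limma's threshold given above, 19 newly passed it, 3 (let-7c without PAA, PA or PP) no longer did, and 7 turned. miR-31 turned to 0.03 with total signal scaling, 0.10 without scaling and 0.42 with the spots set aside included, miR-139 to 0.11, 0.18 and 0.15 in that order, and miR-206 to 0.07 with the median over spots. let-7c was not detected on all arrays at 3 times background. The causes were not tested.

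Counts are given as higher and lower without overlap, then those at least 2-fold apart. Median scaling gave 16 and 30, the invertebrate probes 14, 33 and 7, the Homo spots 20 higher, total signal 8 lower and no scaling 7 lower. Requiring 3 passing spots gave 13 higher and 6 at 2-fold, and 3 times background 17, 3 and 5. With no filter on dim spots 36 were lower and 23 at 2-fold, and with the spots set aside included 22 at 2-fold. Normexp gave 7 at 2-fold, and 45 were lower in the authors' table, beside 41 higher and 13 at 2-fold. That table holds 206 zebrafish probes with values on all 4 arrays, against the 114 of the main counts. Changing the rule for passing or kept spots also changes which probes are compared. Counts under these settings, here and for limma below, are therefore not shares of the 114 and cannot be set directly beside the main counts. Above the BLANK level on the brighter side, 5 were lower. Above it on all 4 arrays, an alternative added after the data were seen, which leaves fewer probes, 6 were higher, 5 lower and 3 at 2-fold.

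limma called 5 probes with median, Homo or invertebrate scaling, 4 in the authors' table, 3 with 3 passing spots or with the spots set aside, 2 with no filter or above the BLANK level on all arrays, and 0 at 3 times background, where 5 had an unadjusted p under 0.05. Of 27 lists, 18 had a median above that of all probes, and 8 at 3 times background and 8 above the BLANK level on all arrays, where fewer lists have members. Probes detected on the hybrids alone numbered 5 with 3 passing spots and 5 above the BLANK level, and those on the non-hybrids alone 1 with 3 passing spots, 1 at 3 times background and 0 above the BLANK level.

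Leaving out each array in turn, 42 to 60 probes were higher, 23 to 40 lower and 10 to 31 at 2-fold, limma called 0 to 1, 16 to 21 lists lay above the median, 15 to 22 probes were detected on the hybrids alone and 6 to 14 on the non-hybrids alone, since fewer arrays have to agree. List medians moved by more than the spread within a side in 88 of 482 values. One-sided detection was not computed for the authors' table, without a filter on dim spots or above the BLANK level on all arrays, where the definition gives none. No paired analysis was possible because each composition has 1 array and the labels give no replicate number. BLANK levels rest on 32 to 40 kept spots per array and limit what can be said of dim probes.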

Other observations

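Of the 22 zebrafish probes above the BLANK level on all 4 arrays, 3 were at least 2-fold apart without overlap. Among the 652 probes of other vertebrates, 100 exceeded the BLANK level on all 4 arrays, and 12 of these were at least 2-fold apart without overlap, 8 higher and 4 lower on the hybrids. Lower were mmu-miR-211 (7.83, 8.22, 9.44 and 10.82 on PAA, PA, AA and PP, −2.10), a miRNA known from pigment cells, and mmu-miR-615 (11.18, 11.78, 13.37 and 13.67, −2.04), encoded in a Hox cluster in mammals. Both hybrids were below both non-hybrids by over a log2 unit for each.

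Several of the 8 higher probes carry the number of a zebrafish probe with another pattern. hsa-miR-219 read 12.43, 12.74, 11.72 and 11.23 (1.11) where the zebrafish miR-219 probe differed by −0.18 with overlap. hsa-miR-192 read 12.89, 13.01, 11.87 and 11.90 (1.06). The zebrafish miR-192 probe is fixed by the quantile normalization, so its normalized values show no pattern to set beside this. Over the 7 scalings its difference lay between −0.21 and 0.27. limma, fitted over the 351 probes of this class, called mmu-miR-200b alone, with an adjusted p of 0.0448.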
